A study of Mus musculus with 24 samples.

Results

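The Fos and Jun family was examined in the nucleus accumbens (NAc) and ventral tegmental area (VTA) of mice given morphine. The 8 members, Fos, Fosb, Fosl1, Fosl2, Jun, Junb, Jund and Atf3, were found by their gene symbols among the 30270 genes of the expression tables. Proteins of this family pair through a leucine zipper and bind DNA as dimers, the transcription factor AP-1. A Fos protein must pair with a Jun protein to bind well, whereas Jun proteins can also pair with each other, and Atf3 can pair with Jun proteins and often represses its targets. Most of these genes are immediate early genes, transcribed within minutes of strong synaptic input, which is why Fos transcript and protein are read as a trace of recent activity in the reward circuit.

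RNA-seq had been performed on bilateral micropunches of frozen brain from C57BL/6 mice that were wild-type or lacked the vitamin D receptor (Vdr-/-). Each mouse had received 1 intraperitoneal injection of phosphate-buffered saline (PBS) or of morphine at 5 mg/kg. With 3 mice for each combination of genotype and injection, there were 12 mice and, with both regions, 24 libraries. Libraries of the regions that share a number in their labels were taken as 1 mouse, which the labels do not state outright. The time after injection was given as 90 min for the RNA-seq mice, but the tissue methods of the study also describe saline controls that were collected at 60 min, so the time after PBS is uncertain. Chow for rearing the Vdr-/- animals was supplemented, and no chow was named for the wild-type group, so genotype and diet cannot be told apart. Age and sex of the sequenced mice were not given.

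Each library held between 9328726 and 30184426 reads on genes. Vdr itself held 0 to 17 reads per library and was not lower in the Vdr-/- groups, so the genotypes rest on the labels. The sample descriptions, though not the column names, give the PBS libraries a prefix that the morphine libraries lack, and whether they were made as separate sets is not stated. Cell type markers moved with the injection. In the nucleus accumbens, the summed level of all 7 medium spiny neuron markers was 2056 to 2658 CPM, counts scaled to the depth of the library, with PBS and 1341 to 1920 CPM with morphine, and all 3 astrocyte markers summed to 112 to 157 CPM with PBS and 185 to 229 CPM with morphine. In the VTA, all 6 dopamine neuron markers summed to 309 to 2325 CPM with PBS and 91.9 to 838 CPM with morphine, with the wild-type morphine punches lowest at 91.9 to 351 CPM. All 4 oligodendrocyte markers summed there to 8896 to 10565 CPM with PBS and 4893 to 7847 CPM with morphine. All 4 microglia markers summed to 115 to 144 CPM with PBS and 91.1 to 108 CPM with morphine in the nucleus accumbens, and to 95.02 to 145 CPM and 65.3 to 81.9 CPM in the VTA. The 4 choroid plexus markers in the nucleus accumbens held 7.79 to 11.8 CPM with PBS and 13.1 to 17.3 CPM with morphine. Astrocyte markers in the VTA went the other way from those in the nucleus accumbens, with medians of 599.6 CPM with PBS and 329 CPM with morphine, and the ranges overlapped. The 2 blood markers found had VTA medians of 58.4 CPM with PBS and 16.9 CPM with morphine. Fewer cells of a type and less RNA per cell cannot be told apart in such tissue, and the part of these differences in the results on morphine was not tested. No marker of the lists checked for the labelled regions was at 0 in a whole group of that region. A trend with exon length also moved with the injection. Spearman's rho over all genes, between exon length and the level relative to the other libraries of the region, was −0.318 in wild-type PBS mouse 2 and −0.0987 to 0.0441 in the other PBS libraries of the nucleus accumbens, against 0.010 to 0.166 with morphine. In the VTA it was −0.183 to −0.0147 with PBS and 0.0199 to 0.132 with morphine. Fosl2 and Fosb have the longest exon sequence of the members, at 9680 and 6243 bases, and the part of this trend in their changes was not tested.

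The 4 members that passed the test with morphine in the nucleus accumbens are Fos, Fosb, Fosl2 and Atf3, and their promoters are printed to show which binding motifs of activity-regulated factors they hold. Atf3 reached the level required for a test there only through its morphine libraries, so its place among the 4 is a description. Each line gives the 250 bases before the start of transcription in RefSeq (GRCm38.p6), 5′ to 3′ on the strand of the gene, with capitals marking the motif TGACGT on either strand. The windows lie at chr12:85473640-85473889 (plus strand) for Fos, chr7:19310046-19310295 (minus strand) for Fosb, chr5:32136222-32136471 (plus strand) for Fosl2 and chr1:191183334-191183583 (minus strand) for Atf3.
Fos promoter: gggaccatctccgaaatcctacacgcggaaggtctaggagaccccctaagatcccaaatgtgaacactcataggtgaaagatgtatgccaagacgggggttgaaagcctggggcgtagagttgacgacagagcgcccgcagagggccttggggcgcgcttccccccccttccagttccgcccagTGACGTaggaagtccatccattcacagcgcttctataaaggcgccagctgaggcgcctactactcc
Fosb promoter: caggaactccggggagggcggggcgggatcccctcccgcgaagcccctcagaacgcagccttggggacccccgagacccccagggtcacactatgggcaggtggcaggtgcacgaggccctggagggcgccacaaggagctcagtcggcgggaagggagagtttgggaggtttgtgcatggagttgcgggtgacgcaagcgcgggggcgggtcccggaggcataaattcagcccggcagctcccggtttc
Fosl2 promoter: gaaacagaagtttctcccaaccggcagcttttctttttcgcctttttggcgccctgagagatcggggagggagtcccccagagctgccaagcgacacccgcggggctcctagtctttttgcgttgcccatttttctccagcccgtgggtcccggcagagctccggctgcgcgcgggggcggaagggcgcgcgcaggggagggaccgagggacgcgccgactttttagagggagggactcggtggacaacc
Atf3 promoter: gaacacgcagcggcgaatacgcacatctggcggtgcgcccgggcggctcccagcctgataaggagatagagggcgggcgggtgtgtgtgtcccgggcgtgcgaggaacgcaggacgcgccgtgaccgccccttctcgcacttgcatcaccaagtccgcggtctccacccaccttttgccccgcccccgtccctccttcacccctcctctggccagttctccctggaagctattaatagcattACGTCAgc
TGACGT, which lies within the full cAMP response element TGACGTCA, was found in the Fos window from 66 to 61 bases before the start and, as ACGTCA, in the Atf3 window from 8 to 3 bases before it. The Fosb and Fosl2 windows held no match. Of 32851 promoter windows of the same length, 6.469% held TGACGT. Neither TGACGTCA, nor the AP-1 motif TGANTCA, nor the CArG box bound by serum response factor was found in these 4 windows, against 1.546%, 6.749% and 1.467% of all windows. A match is only a description of the letters, and factors can bind outside these windows. The RefSeq start of Fosl2, at 32136472, differs from the start of the gene in the annotation, at 32135801, and that of Atf3, at 191183333, lies within the annotated gene, which runs from 191170296 to 191218039, so these windows are those of 1 of several possible starts.

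Levels of different genes are compared as RPKM, the reads per kilobase of exon scaled to the depth of the library. In the nucleus accumbens, Junb stood highest at 15.2 ± 2.44 RPKM (SD over 12 libraries), followed by Jun at 10.9 ± 1.50 RPKM, Fos at 7.62 ± 2.52 RPKM, Fosl2 at 7.35 ± 2.86 RPKM and Fosb at 4.28 ± 1.33 RPKM. In the VTA the order was different, with Jun first at 10.9 ± 2.52 RPKM and Fos second at 6.91 ± 1.94 RPKM, while Junb was at 3.42 ± 0.738 RPKM, Fosl2 at 2.22 ± 1.05 RPKM and Fosb at 1.02 ± 0.457 RPKM. The ranges of each pair of neighbours in these orders overlapped in both regions. Atf3, a stress-induced member of the ATF family, was low throughout at 0.506 ± 0.369 RPKM in the nucleus accumbens and 0.240 ± 0.0715 RPKM in the VTA, on 3 to 41 reads per library.

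The other two members were close to the limit of detection. Jund, usually described as the constitutive Jun gene, held 26 reads over all 24 libraries, with 0 to 3 in each and 0 in 5 libraries. Its exon lies on chromosome 8 from 70698949 to 70700616 (GRCm38), and 52.6% of its bases overlap an annotated gene on the other strand. Fosl1, which encodes Fra-1, held 84 reads, with 0 to 10 in each library and 0 in 6, and 57.2% of its exon bases overlap Ccdc85b on the other strand, a gene with 9102 reads that was named after its values were seen. The libraries were made with a directional kit, but the column of strand used in counting is not given in the sources used here, so these counts of Jund and Fosl1 are uncertain. A count of 0 allows up to 3 reads, or 0.0994 to 0.322 CPM, for counting error only. Neither gene reached the mean value of 10 that was required for a test in any comparison. Jun and Junb share 7.28% and 7.52% of their exon bases with genes on the other strand, and Fos, Fosb, Fosl2 and Atf3 share none.

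**Figure D1:**
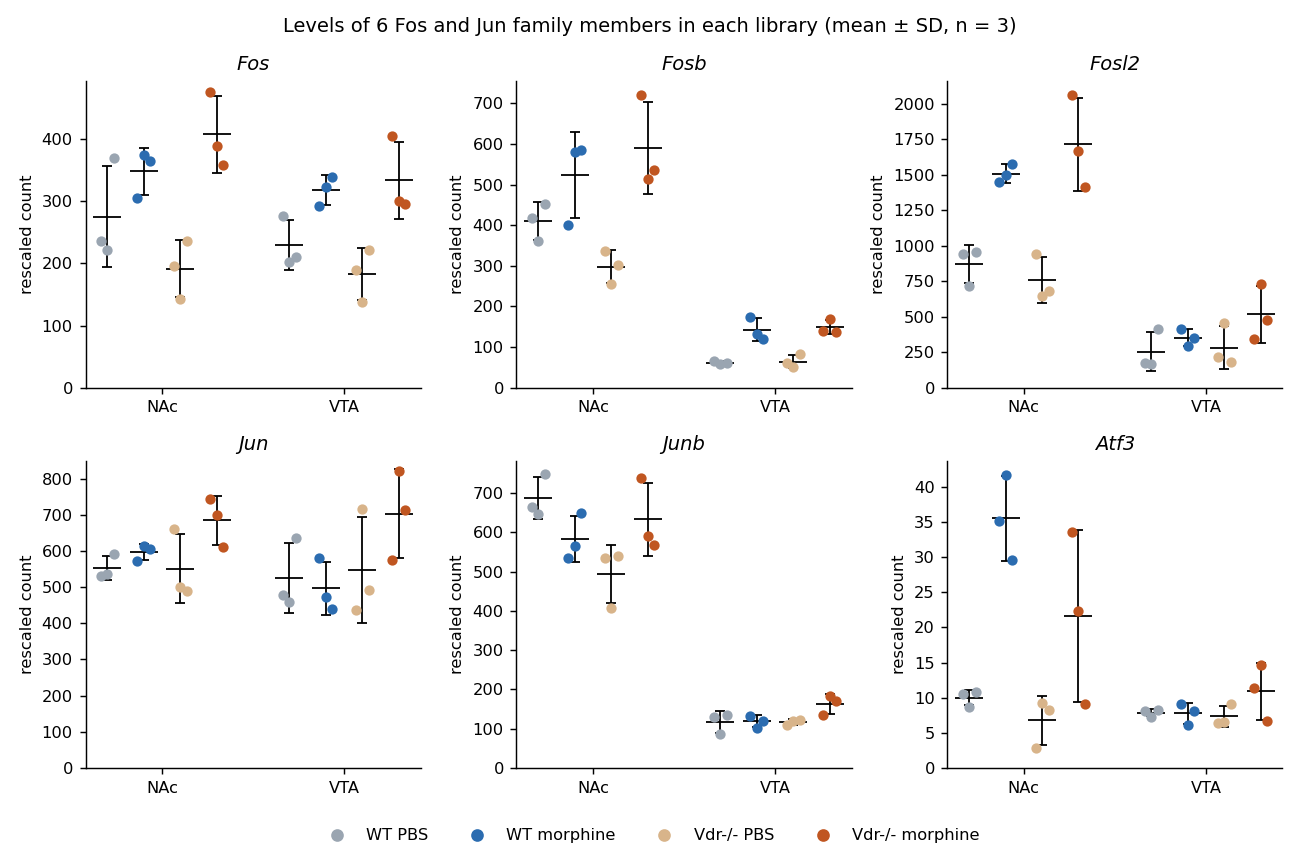
Rescaled read counts (reads of all 24 libraries set to 1 scale) of 6 members in each library, as points, with the mean and SD of each group of 3 mice as bars. Fosb, Fosl2 and Junb stand several-fold higher in the nucleus accumbens (NAc) than in the VTA, Fos and Jun lie at similar heights in both, and the Fosl2 level of every NAc morphine library (1412 to 2063) lies above every NAc PBS library (649 to 955).

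The first question was which members differed between mice given morphine and mice given PBS. In the nucleus accumbens, averaged over the genotypes, the Fos members and Atf3 were higher with morphine and the Jun members were not called. Of the 6 members tested, 4 were called, all higher, against 19.8% of all 15786 genes (limma, Benjamini-Hochberg adjusted p under 0.05, both directions). Atf3 passed the limit on low values in this region only through its morphine libraries (means of 8.39 with PBS and 28.6 with morphine), so its count among those called is a description, and 3 of the other 5 members were called. Counts are rescaled read counts, in the order of the mouse numbers, and fold changes were fitted on log2(value + 1), where the value was the rescaled count for averaged and between-region comparisons and the deposited normalized count for comparisons within a genotype or an injection and for the interactions.

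Fosl2, which encodes the Fos protein Fra-2, was the 1 member in which the injections did not overlap. Its counts in wild-type mice were 939, 716 and 955 with PBS and 1448, 1495 and 1579 with morphine. The Vdr-/- mice had 943, 649 and 678 with PBS and 2063, 1671 and 1412 with morphine. All 6 morphine libraries were above all 6 PBS libraries, and the averaged log2 fold change was 1.00 (standard error 0.12, 2.01-fold, limma adjusted p = 0.000271). How many of all genes separated fully by injection was not counted, here or in the VTA. Fos, the most widely used activity marker, counted 236, 222 and 370 with PBS and 305, 375 and 364 with morphine in wild-type mice. Fos in Vdr-/- mice counted 196, 144 and 236 with PBS and 477, 389 and 358 with morphine. The wild-type groups overlapped through PBS mouse 3, which was as high as the morphine mice, and the Vdr-/- groups did not overlap. The averaged log2 fold change of Fos was 0.75 (standard error 0.15, 1.68-fold, adjusted p = 0.00560).

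Fosb, whose truncated splice product accumulates with repeated drug exposure, is counted here per gene, and gene counts cannot separate its splice forms. It counted 418, 360 and 451 with PBS and 400, 581 and 586 with morphine in wild-type mice. In Vdr-/- mice it counted 337, 255 and 302 with PBS and 721, 514 and 535 with morphine. Morphine mouse 1.0 was the only morphine mouse within the PBS range, and the averaged log2 fold change was 0.66 (standard error 0.12, 1.59-fold, adjusted p = 0.00358). Atf3 rose from low counts. Wild-type mice had 10.5, 8.75 and 10.8 with PBS and 35.2, 41.7 and 29.6 with morphine, and Vdr-/- mice had 2.78, 9.23 and 8.28 with PBS and 33.5, 22.4 and 9.04 with morphine. Morphine mouse 2.2, with 5 reads, lay within the PBS range, and the averaged log2 fold change was 1.61 (standard error 0.32, 3.05-fold, adjusted p = 0.00561).

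The Jun members, the obligate partners of the Fos proteins, were flatter. Jun counted 532, 535 and 591 with PBS and 571, 613 and 604 with morphine in wild-type mice, and 661, 500 and 491 with PBS and 744, 700 and 611 with morphine in Vdr-/- mice. Its averaged log2 fold change was 0.23 (standard error 0.08, adjusted p = 0.0627), and it was called without morphine mouse 2.2 (0.27, adjusted p = 0.0493) or without PBS mouse 7 (0.30, adjusted p = 0.0114). Junb counted 666, 647 and 748 with PBS and 535, 564 and 649 with morphine in wild-type mice, against 534, 408 and 540 with PBS and 739, 592 and 568 with morphine in Vdr-/- mice. The sign of the difference was thus not the same in the genotypes, and the averaged log2 fold change of Junb was 0.07 (95% confidence interval −0.13 to 0.27, adjusted p = 0.617).

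**Figure D2:**
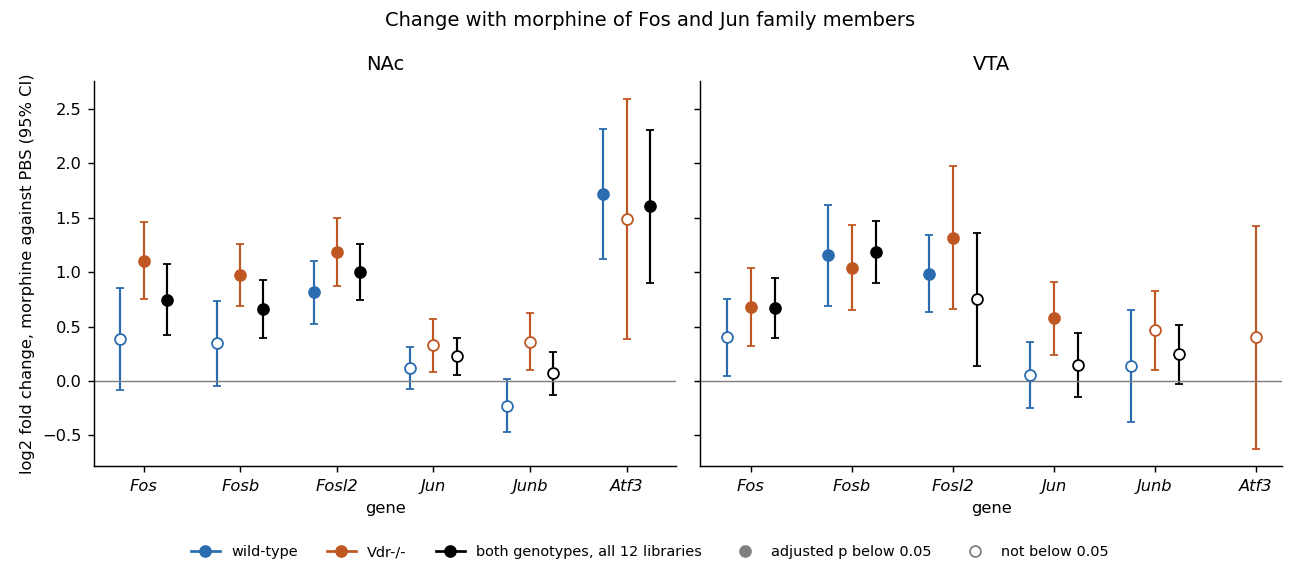
Log2 fold change of 6 members with morphine against PBS in each region, as points with 95% confidence intervals from limma, for wild-type mice, Vdr-/- mice and both genotypes averaged over all 12 libraries. Filled points passed an adjusted p of 0.05, and points are missing where a gene was too low to be tested. In the NAc the averaged values of Fos, Fosb, Fosl2 and Atf3 (0.66 to 1.61) are filled and those of Jun and Junb are open, and in the VTA those of Fos (0.67) and Fosb (1.19) are filled.

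Within genotypes, fewer members passed in wild-type mice. In the wild-type nucleus accumbens, 2 of 6 members were called against 0.813% of all genes, Fosl2 (log2 fold change 0.82, standard error 0.12, adjusted p = 0.0390) and Atf3 (1.72, standard error 0.26, adjusted p = 0.0377). Atf3 had normalized means of 9.00 with PBS and 32.2 with morphine in these mice, so it again passed the limit on low values through the group in which it was high. Both calls were lost when any library other than PBS mouse 2 was left out, with adjusted p-values of 0.0823 to 0.222. The log2 fold changes were then 0.79 to 0.89 for Fosl2 and 1.60 to 1.84 for Atf3. Few genes were called in all in those fits, 21 without morphine mouse 1.0 and 0 without mouse 1.1 or 1.2. Without PBS mouse 1 it was 4 genes, and without PBS mouse 3 it was 9. With all libraries, edgeR called 2 members against 159 genes in all, and DESeq2 2 members against 514. Fos (0.38, adjusted p = 0.381), Fosb (0.35, adjusted p = 0.350), Jun (0.12, adjusted p = 0.474) and Junb (−0.22, adjusted p = 0.329) did not pass.

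In the Vdr-/- nucleus accumbens, 3 of 6 members were called against 19.1% of all genes. These were Fosl2 (1.19, standard error 0.14, adjusted p = 0.000393), Fos (1.11, standard error 0.16, adjusted p = 0.00110) and Fosb (0.98, standard error 0.13, adjusted p = 0.000688). Atf3 (1.49, standard error 0.51, adjusted p = 0.0599), Junb (0.36, adjusted p = 0.0534) and Jun (0.33, adjusted p = 0.0569) stood just outside the threshold. Atf3 had normalized means of 6.19 with PBS and 19.9 with morphine, so it was tested only through its morphine libraries. edgeR called 5 of 6 members against 3076 of 15820 genes, adding Junb and Atf3. DESeq2 called 5 of 5 members against 2124 of 14899 genes, adding Jun and Junb, and gave Atf3 no adjusted p-value. Without PBS mouse 7, Jun (0.47) and Junb (0.42) were also called by limma, which gave 5 members against 2334 of 15848 genes. Cortical excitatory neuron markers summed to 1138.5 CPM in mouse 7 and to 393 to 897 CPM in the other libraries of the region. The part of this in the Jun and Junb values was not tested.

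The difference between the genotypes was tested directly. For the interaction in the nucleus accumbens, 0 of 6 members were called by limma, edgeR or DESeq2, against 0% of 15788 genes, and 3 members and 916 genes had an unadjusted p under 0.05. Those members were Fos (morphine effect larger by 0.72 in Vdr-/- mice, 95% confidence interval 0.08 to 1.37), Fosb (0.63, 0.10 to 1.16) and Junb (0.59, 0.19 to 0.99), each with an adjusted p of 0.832. Among the mice given PBS, which also enter the interaction, the means of these 3 members were lower in Vdr-/- mice. Junb stood at 495 ± 75.3 normalized counts in Vdr-/- and 683 ± 59.1 in wild-type mice (SD, n = 3, log2 fold change −0.47, limma adjusted p = 0.425). Fosb stood at 299 ± 41.6 and 408 ± 50.4 (−0.45, limma adjusted p = 0.461), and Fos at 192 ± 46.5 and 274 ± 83.4 (−0.50, limma adjusted p = 0.600). The genotype comparison of PBS mice called 0 of 5 members against 0.0690% of all genes, and 2 members, Fosb and Junb, had an unadjusted p under 0.05. Oligodendrocyte markers summed to 3095 to 3324 CPM in these Vdr-/- and 3637.5 to 4610 CPM in these wild-type mice. For astrocyte markers it was 112 to 134 and 139 to 157 CPM. Endothelial cell markers had 86.2 to 89.5 and 112 to 128 CPM, and microglia markers 115 to 125 and 131 to 144 CPM. Ranges of the other marker lists overlapped. The part of this in the genotype differences was not tested.

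In mice given morphine, 0 of 6 members were called between the genotypes against 0.192% of all genes, and 1 member, Jun, had an unadjusted p under 0.05. Fos stood at 339 ± 51.7 normalized counts in Vdr-/- and 289 ± 32.3 in wild-type mice (SD, n = 3), a log2 fold change of 0.22 with a 95% confidence interval of −0.03 to 0.48 (limma adjusted p = 0.694). Atf3 differed in the other direction, at 17.97 ± 10.19 against 29.5 ± 5.13 (−0.84, limma adjusted p = 0.648). edgeR and DESeq2 also called 0 members in both genotype comparisons of this region. Over all genes, edgeR called 12 with PBS and 29 with morphine, and DESeq2 called 65 and 52.

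In the VTA, averaged over the genotypes, 2 of 5 members were called higher with morphine, Fosb and Fos, against 31.2% of all 16240 genes called in either direction. The median change of the 5 members was 0.67, against 0.00 over all genes. Fosb counted 66.4, 57.4 and 61.8 with PBS and 174, 133 and 120 with morphine in wild-type mice. Fosb in Vdr-/- mice counted 61.7, 50.2 and 81.9 with PBS and 140, 168 and 138 with morphine. No morphine library overlapped a PBS library, and the averaged log2 fold change of Fosb was 1.19 (standard error 0.13, 2.28-fold, limma adjusted p = 0.000282).

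Fos counted 276, 203 and 210 with PBS and 293, 323 and 339 with morphine in wild-type mice, and 189, 139 and 221 with PBS and 406, 301 and 296 with morphine in Vdr-/- mice. Here too all morphine libraries were above all PBS libraries, and the averaged log2 fold change was 0.67 (standard error 0.13, 1.59-fold, adjusted p = 0.00296). Leaving out any single library kept both calls. Junb (0.25, adjusted p = 0.153) and Jun (0.15, adjusted p = 0.441) did not pass, and Atf3, at 6.09 to 14.7 rescaled counts per library, was below the limit for a test.

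Fosl2 and Jun in the VTA spread widely within groups. Fosl2 counted 176, 170 and 413 with PBS and 414, 295 and 350 with morphine in wild-type mice, and 215, 454.5 and 178 with PBS and 341, 733 and 479 with morphine in Vdr-/- mice. Jun counted 478, 459 and 637 with PBS and 580, 472 and 439 with morphine in wild-type mice, and 436, 715 and 493 with PBS and 575, 822 and 712 with morphine in Vdr-/- mice. The 4 libraries that were highest in Jun were those with most of the 4 cortical excitatory neuron markers, such as the vesicular glutamate transporter Slc17a7. Their summed level was 131 CPM in wild-type PBS mouse 3, 142 CPM in Vdr-/- PBS mouse 8, and 163 and 82.2 CPM in Vdr-/- morphine mice 2.1 and 2.2. In the other 8 VTA libraries it was 7.29 to 63.9 CPM. Jun was 637 to 822 in these 4 libraries and 436 to 580 in the other 8. Fosl2 was 413 to 733 against 170 to 414, overlapping through wild-type morphine mouse 1.0, while Fosb (50.2 to 168 against 57.4 to 174) and Fos (139 to 301 against 189 to 406) overlapped. Mouse 2.1 also held 118 CPM of the 4 choroid plexus markers, against 7.65 to 15.4 CPM in the other VTA libraries. The part of this tissue difference in the Fosl2 and Jun values was not tested.

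**Figure D3:**
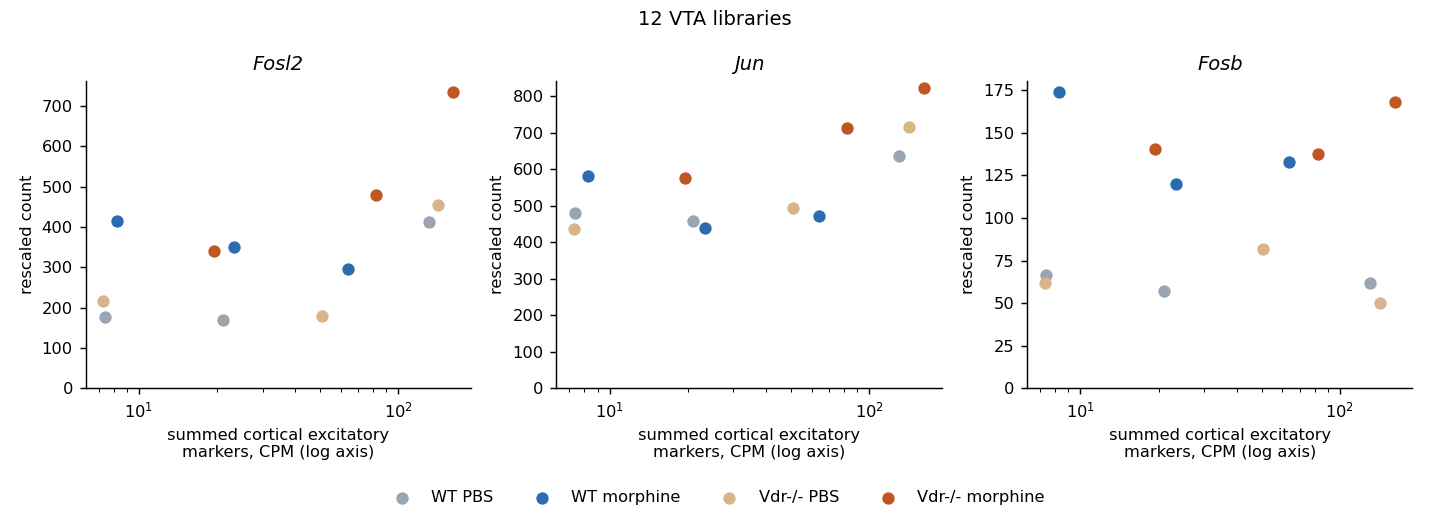
Rescaled read counts of Fosl2, Jun and Fosb in the 12 VTA libraries (vertical axes) against the summed level of 4 cortical excitatory neuron markers in the same library (horizontal log axis, CPM). The 4 libraries above 82 CPM hold Jun at 637 to 822, above the other 8, whereas Fosb separates the morphine libraries (120 to 174) from the PBS libraries (50.2 to 81.9) at any level of the markers.

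Averaged over genotypes, Fosl2 changed by 0.75 in the VTA (standard error 0.28, adjusted p = 0.0607). Without the 3 libraries above 100 CPM of those markers, a selection made after the data were seen, Fosl2 was called at 1.02 (standard error 0.13, adjusted p = 0.00627), Fos and Fosb stayed called at 0.58 and 1.06, and Jun was at 0.26 (adjusted p = 0.0988). Fosl2 was also called when only wild-type PBS mouse 3 (0.96, adjusted p = 0.0184), Vdr-/- PBS mouse 8 (0.95, adjusted p = 0.0169) or Vdr-/- morphine mouse 2.0 (0.89, adjusted p = 0.0426) was left out.

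The deposited VTA tables of morphine against PBS lack wild-type PBS mouse 3 and Vdr-/- PBS mouse 8, so each compares 3 mice with 2. Both punches were among the 4 with most cortical markers, and the other 2, Vdr-/- morphine mice 2.1 and 2.2, are included. In wild-type mice, 2 of 5 members were called against 3.65% of all genes, Fosb (1.16, standard error 0.20, adjusted p = 0.0330) and Fosl2 (0.99, standard error 0.15, adjusted p = 0.0271). In Vdr-/- mice, 4 of 6 were called against 10% of all genes, Fosl2 (1.32, standard error 0.28, adjusted p = 0.0323), Fosb (1.04, standard error 0.17, adjusted p = 0.0164), Fos (0.68, standard error 0.15, adjusted p = 0.0371) and Jun (0.58, standard error 0.14, adjusted p = 0.0467). Junb (0.47, adjusted p = 0.0941) and Atf3 (0.40, adjusted p = 0.580) did not pass. Atf3 had normalized means of 8.84 with PBS and 12.4 with morphine in these mice, so it was tested only through its morphine libraries. Without morphine mouse 1.2 neither member was called in wild-type mice, and 64 genes were called in all. Among Vdr-/- mice, leaving out morphine mouse 2.2 ended all 4 calls, with 329 of 16347 genes called. When morphine mouse 2.1 was left out, 2 members remained (Fosb and Fosl2) against 653 of 16323 genes. Leaving out a PBS mouse left that group with 1 library, which was assumed to vary like the morphine group. No gene at all was then called without wild-type PBS mouse 1 or 2 or Vdr-/- PBS mouse 7, so those fits say nothing of the members, and Fosb stayed called without PBS mouse 9. With all 3 mice of each group, from the recovered reads, 1 of 5 members was called in wild-type mice, against 2001 of 16269 genes. This was Fosb (1.16, limma adjusted p = 0.00755), and Fosl2 was at 0.58 (adjusted p = 0.257). In Vdr-/- mice 2 of 5 members were called against 1242 of 16194 genes, Fos (0.87, adjusted p = 0.0373) and Fosb (1.21, adjusted p = 0.0165). There Fosl2 was at 0.92 (adjusted p = 0.159) and Jun at 0.37 (adjusted p = 0.244). The wild-type punches of the morphine group held 91.9 to 351 CPM of dopamine neuron markers, against 1817 to 2325 CPM in the PBS group.

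Genotype differences in the VTA did not pass the threshold. With PBS, 0 of 5 members were called against 0.390% of all genes, and none had an unadjusted p under 0.05, with log2 fold changes from −0.34 (Fos) to 0.16 (Fosl2). With morphine, 0 of 5 were called against 0.0624%, and 2, Jun and Junb, had an unadjusted p under 0.05. Jun stood at 700 ± 123 normalized counts in Vdr-/- and 493 ± 73.1 in wild-type mice (SD, n = 3, log2 fold change 0.50, limma adjusted p = 0.478), and Junb at 162 ± 25.04 and 118 ± 15.1 (0.46, limma adjusted p = 0.516). The interaction used 10 libraries, without wild-type PBS mouse 3 and Vdr-/- PBS mouse 8. It called 0 of 5 members against 0.0553% of all genes. Jun was the largest at 0.52 (95% confidence interval 0.04 to 1.00, adjusted p = 0.374) and the 1 member with an unadjusted p under 0.05. Cortical markers summed to 131 and 142 CPM in the 2 PBS punches left out. They were at 19.5 to 163 CPM in the Vdr-/- and 8.26 to 63.9 CPM in the wild-type morphine punches. The part of this in the Jun differences was not tested. edgeR and DESeq2 called 0 members with PBS, with morphine and for the interaction. Over all genes, edgeR called 69, 10 and 8 in these comparisons, and DESeq2 called 282, 94 and 193.

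The balance between Fos and Jun transcripts was followed as the summed RPKM of Fos, Fosb, Fosl1 and Fosl2 over that of Jun and Junb, leaving out Jund. In the nucleus accumbens this ratio was 0.575 ± 0.0705 with PBS and 0.882 ± 0.0518 with morphine in wild-type mice (SD, n = 3), and 0.535 ± 0.0291 and 0.908 ± 0.0457 in Vdr-/- mice. In the VTA it was 0.634 ± 0.0768 and 0.970 ± 0.130 in wild-type mice, and 0.548 ± 0.117 and 0.784 ± 0.170 in Vdr-/- mice. In every combination of region and genotype, the 3 morphine mice lay above the 3 PBS mice. No test was made of this ratio, since it is a score over chosen members. The share of the summed RPKM held by Junb in the nucleus accumbens was 39.9% ± 1.45 with PBS and 30.0% ± 1.59 with morphine in wild-type mice, while that of Fosl2 was 11.985% ± 1.27 and 18.5% ± 0.819. The summed level of all members but Jund was 34.3 to 56.0 RPKM in the group means of the nucleus accumbens and 21.1 to 31.9 RPKM in those of the VTA.

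**Figure D4:**
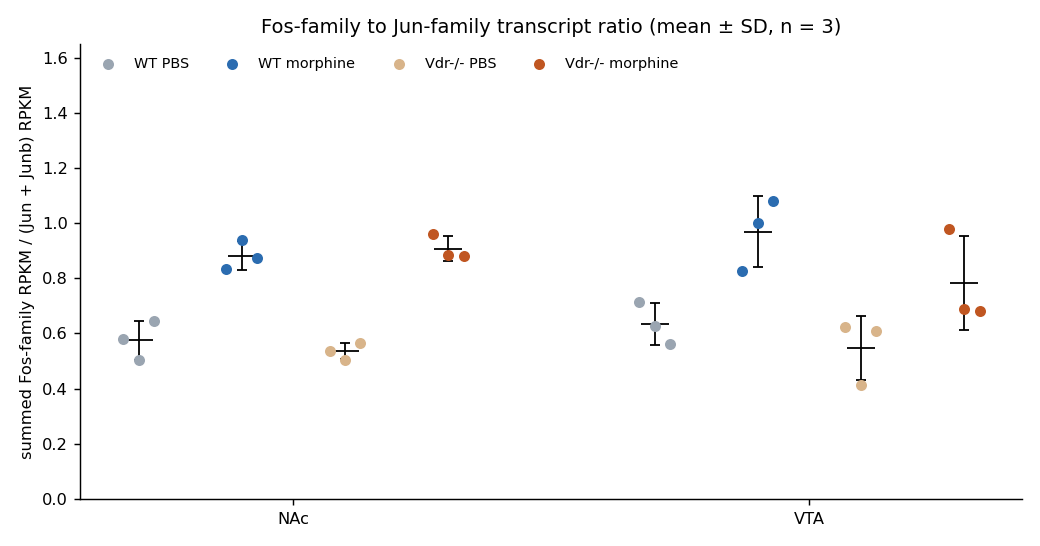
Ratio of the summed RPKM of Fos, Fosb, Fosl1 and Fosl2 to that of Jun and Junb in each library, as points, with the mean and SD of 3 mice as bars. In each region and genotype the morphine points lie above the PBS points, with NAc group means of 0.535 and 0.575 with PBS and 0.882 and 0.908 with morphine.

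The second question was how the regions differ within a mouse. Of 6 members tested, 5 were called higher in the nucleus accumbens than in the VTA, against 72.9% of all 16147 genes called in either direction, so that the count itself is near the background. Atf3 is 1 of the 5 and passed the limit on low values only through the nucleus accumbens of morphine mice, with rescaled means of 28.6 there and 7.60 to 9.34 in the other combinations of region and injection. The sizes differed widely among the members. Junb was higher by 2.22 (standard error 0.08, 4.65-fold, limma adjusted p = 1.51e-10), Fosb by 2.19 (standard error 0.10, 4.55-fold, adjusted p = 7.49e-10) and Fosl2 by 1.82 (standard error 0.16, 3.54-fold, adjusted p = 3.52e-07), each in 12 of 12 mice. Within-mouse differences spanned 1.68 to 2.90 for Junb, 1.19 to 2.85 for Fosb and 0.51 to 2.59 for Fosl2. The cortical excitatory neuron markers summed to 393 to 1138.5 CPM in the nucleus accumbens libraries and 7.29 to 163 CPM in the VTA libraries. The part of this tissue difference in the differences between the regions, of members or of related genes, was not tested.

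Fos and Jun were close to even between the regions. Fos was higher in the nucleus accumbens by 0.18 (standard error 0.07, 1.13-fold, adjusted p = 0.0343) in 11 of 12 mice, a call that was lost when any of 7 of the 12 mice was left out (0.11 to 0.24 over all 12 fits, adjusted p up to 0.0691), with trimmed mean of M-values (TMM) scaling (0.17, adjusted p = 0.0521), without the mouse as a block (0.18, adjusted p = 0.123) and without the 3 mice whose VTA punches held most cortical markers (0.10, adjusted p = 0.113). Jun differed by 0.09 (95% confidence interval −0.10 to 0.28, adjusted p = 0.375) and was higher in the nucleus accumbens in 6 of 12 mice. Atf3 was higher there by 0.74 (standard error 0.17, adjusted p = 0.00139), in 10 of 12 mice, which is given as a description since its high group decided that it was tested.

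**Figure D5:**
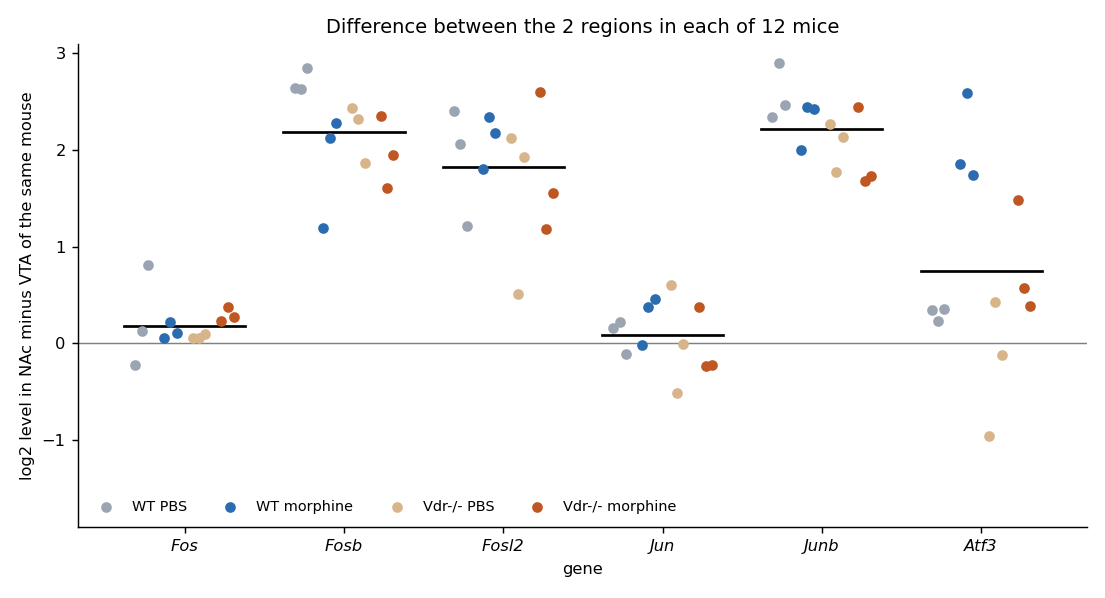
Level in the NAc minus level in the VTA of the same mouse, on the scale of log2(rescaled count + 1), for 6 members in 12 mice (points, coloured by group), with the fitted mean as a line. Fosb, Fosl2 and Junb are above 0 in all mice (means 2.19, 1.82 and 2.22), Jun is spread around 0, and Atf3 is 1.74 to 2.59 in wild-type mice given morphine and 0.23 to 0.36 in wild-type mice given PBS.

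Fosl1 held a median of 6 reads per library in the VTA and 1 in the nucleus accumbens. With no filter on low values its difference was −1.52 (limma adjusted p = 0.000529), and it was not higher in the nucleus accumbens in any of 12 mice. In the VTA it held 7, 8 and 10 reads in wild-type and 8, 5 and 10 in Vdr-/- mice given morphine, against 4, 1 and 8 and 5, 0 and 4 with PBS. Without the filter, the averaged change of Fosl1 with morphine in the VTA was 1.56 (adjusted p = 0.0336). These counts share the uncertainty of the overlapping gene on the other strand.

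Whether morphine acted differently in the regions was tested on the within-mouse differences. Of 6 members, 1 was called against 12.4% of all genes. The morphine effect on Atf3 was larger in the nucleus accumbens by 1.39 (standard error 0.33, 95% confidence interval 0.67 to 2.11, limma adjusted p = 0.01998). As Atf3 was tested only because of its morphine level in the nucleus accumbens, this difference is a description of that level. In wild-type mice, the difference between the regions was 0.35, 0.23 and 0.36 with PBS and 1.85, 2.59 and 1.74 with morphine, and the groups did not overlap. In Vdr-/- mice it was −0.96, 0.43 and −0.12 with PBS and 1.48, 0.57 and 0.39 with morphine, where mouse 2.2 fell below PBS mouse 8. Atf3 stayed called with each mouse left out, and without the 3 mice whose VTA punches held most cortical markers it was at 1.62 (adjusted p = 0.0601). Fosb went the other way, with a morphine effect smaller in the nucleus accumbens (−0.54, standard error 0.19, adjusted p = 0.0863). The differences were 0.06 for Fos (95% confidence interval −0.25 to 0.36), 0.24 for Fosl2 (−0.45 to 0.92), 0.06 for Jun (−0.32 to 0.45) and −0.19 for Junb (−0.54 to 0.16).

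Members were also compared by their pattern over the 12 libraries of a region, as Pearson's r of log2(rescaled count + 1) with each gene of at least 10 counts on average. The libraries share the injection groups, so r is a description. In the nucleus accumbens, the 5 genes most like Fos were Fosb (0.932), Clic5 (0.932), Arc (0.928), Olfml2a (0.924) and a gene without a symbol in the tables used. Fosl2 was most like Nr4a3 (0.978), an orphan nuclear receptor of the immediate early class, then Dio2 (0.947) and 9330159F19Rik (0.943). Junb stood apart from Fosl2 with r = 0.418, its closest genes being Unc13a (0.922), Nr4a1 (0.863) and Zdhhc14 (0.856). Atf3 was most like Ppp1r3c (0.907), Ctsh (0.905) and Palld (0.901).

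In the VTA, Fos and Fosb were alike at r = 0.829, and so were Fosl2 and Jun at 0.836, whereas Fos and Fosl2 had r = 0.190 and Fos and Jun −0.0635. The genes most like Fosl2 there were Nptxr (0.962), Pxdn (0.960) and Csnk1g1 (0.957), and those most like Jun were Ankrd33b (0.969), Sipa1l1 (0.957) and Col12a1 (0.952). Deviations from the group mean in 1 region, set against those in the other region of the same mouse, gave r = 0.533 over 12 mice for Fos and 0.565 for Atf3, and negative values for Jun (−0.371), Fosb (−0.245), Junb (−0.138) or Fosl2 (−0.135).

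Related genes were counted from 4 lists, with the averaged morphine comparison of each region first. Of 7 Egr and Nr4a factors, other immediate early transcription factors, 1 was called in the nucleus accumbens, Nr4a3 (1.06, standard error 0.16, adjusted p = 0.00123), against 19.8% of all genes, and the median of the list was 0.24 against 0.01 over all genes. In the VTA, 2 of 6 tested were called against 31.2% of all genes, Nr4a1 (0.43, adjusted p = 0.00788) and Egr1 (0.35, adjusted p = 0.00548), with a median of 0.39. Of 20 genes listed as AP-1 targets, 17 were tested in the nucleus accumbens, where 6 were called higher and 1 lower, again against 19.8% of all genes in both directions, with a median of 0.17. The largest changes were in Gem (1.27, adjusted p = 0.00178), a small GTPase, Nts (1.01, adjusted p = 0.0178), the precursor of neurotensin, Penk (−0.69, adjusted p = 0.000591), the precursor of enkephalin, and Cdkn1a (0.59, adjusted p = 0.00126), an inhibitor of the cell cycle. In the VTA 4 of 17 targets tested were called higher and 2 lower, against 31.2% of all genes, led by Pdyn (2.23, adjusted p = 0.00373), the precursor of dynorphin, Cdkn1a (0.76, adjusted p = 0.00376), Vgf (0.75, adjusted p = 0.00125), a secreted granin, and Hmox1 (−0.69, adjusted p = 0.0206), a heme oxygenase. Penk and Pdyn are also made by medium spiny neurons. Markers of these neurons were lower in the nucleus accumbens morphine libraries, and in the VTA had medians of 169.7 CPM with PBS and 150 CPM with morphine. The part of these differences in the Penk and Pdyn changes was not tested.

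The other bZIP partners include proteins that can pair with Fos or Jun proteins. Of 13 tested among 16 in the nucleus accumbens, 1 was called higher, Atf4 (0.27, adjusted p = 0.00426), and 1 lower, a share below the 19.8% of all genes, with a median of 0.07. In the VTA 2 of 13 were called higher and 5 lower, against 31.2% of all genes, with Creb5 (−0.95, adjusted p = 0.00107), Nfe2l2 (−0.49, adjusted p = 0.00455), Atf7 (−0.18, adjusted p = 0.0285) and Ddit3 (−0.18, adjusted p = 0.0353) the largest. The 18 upstream regulators, the kinases and factors through which activity reaches the Fos and Jun promoters, were all tested in both regions. In the nucleus accumbens 1 was called higher, Map2k4 (0.20, adjusted p = 0.0263), and 3 lower, among them Mapk3 (−0.29, adjusted p = 0.0103) and Map2k1 (−0.25, adjusted p = 0.0484), near the share of all genes. In the VTA 6 of 18 were called higher and 2 lower, against 31.2% of all genes, with Mkl2 (0.30, adjusted p = 0.00960), Elk1 (0.28, adjusted p = 0.00228) and Srf (0.25, adjusted p = 0.0286) the largest.

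In the wild-type nucleus accumbens none of the 4 lists had a gene called, against 0.813% of all genes. In Vdr-/- mice, where 19.1% of all genes were called, all 4 lists had genes called. Of 7 Egr and Nr4a factors, 3 were called higher, Nr4a3 (1.30, adjusted p = 0.00109), Egr2 (0.90, adjusted p = 0.0420) and Nr4a1 (0.84, adjusted p = 0.00845). Of 16 AP-1 targets tested, 6 were called higher and 2 lower, and of 13 bZIP partners 3 higher and 1 lower. Of 18 upstream regulators, 0 were called higher and 7 lower. None of the 4 lists had a gene called in either interaction. Between the regions, 6 of 7 Egr and Nr4a factors were higher in the nucleus accumbens, against 72.9% of all genes called in either direction, led by Egr3 (4.36), Egr2 (4.29), Egr4 (3.80) and Egr1 (2.44), and so were 11 of 18 upstream regulators, with 2 lower, a share also near the background, led by Mkl2 (1.67), Mkl1 (1.58), Srf (1.20), which encodes serum response factor, and Rps6ka3 (1.15), with adjusted p-values of at most 2.25e-08.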

How the data were processed

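RNA-seq libraries were made from micropunches of both regions of 12 mice (24 libraries). Per the labels and methods, reads were trimmed with Trimmomatic 0.36 after CASAVA 1.8, aligned with STAR 2.4.2a and counted per gene, and the authors divided the counts by DESeq2 size factors. The deposited values are thus normalized signal per gene in 8 tables of 2 groups each, and dividing by the size of 1 read gave whole reads for 100% of values (tolerance 0.01). Recovered reads were rescaled together over all libraries for levels and for comparisons between regions, and over the 12 libraries of a region for the averaged morphine comparisons. The other comparisons used the deposited values. Depth was 9328726 to 30184426 reads on genes per library, and intervals and floors cover counting error only.

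The 14 comparisons were fitted on log2(value + 1) with limma 3.58.1 (R 4.3.3) with a trend, over genes with a mean of at least 10, with Benjamini-Hochberg adjustment over all genes tested and a threshold of 0.05. Fold changes are on this log2(value + 1) scale, which understates changes of low genes. Region comparisons kept the mouse as a block, with libraries that share a number in the labels taken as 1 mouse. Alternatives were a pseudocount of 5, no filter, edgeR 4.0.16 and DESeq2 1.42.0 on the recovered reads, TMM scaling, each library or mouse left out, a block on the last digit of the mouse number, all 3 mice of each VTA group, and, chosen after the data were seen, leaving out the 3 VTA libraries above 100 CPM of cortical markers. The fits were tested on simulated data. Tables were summarised with Python 3.11.15, pandas 2.3.3 and numpy 2.4.6, and plotted with matplotlib 3.10.9. Members and lists were chosen with earlier results of these data known. Beyond the members, genes were named if called and among the 4 largest changes of a list, or among the 5 genes most like Fos or the 3 most like another member. A few genes that this rule or a marker list would name are not reported here. Promoters were from RefSeq (7 of 8 members matched).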

Additional observations from a re-analysis of the deposited data

Results flagged for a closer look

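The morphine effect on Atf3 was larger in the nucleus accumbens than in the VTA by 1.39 on the log2(rescaled count + 1) scale, and it stands here because the test of the difference between the regions passed the threshold (limma adjusted p = 0.01998, 12 mice). Atf3 was tested only because its rescaled mean of 28.6 in the nucleus accumbens of morphine mice lifted it past the limit on low values, against 7.60 to 9.34 elsewhere, so the difference is a description of that level. With each mouse left out, the difference was 1.21 to 1.55 and the adjusted p-value 0.0159 to 0.0469. It rests on 3 to 41 reads per library.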

How the results depend on the processing

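Of 183 alternatives to the counts of members called, 165 stayed within 1.5 times the reported count. These include all alternatives of the genotype and interaction comparisons, where the reported count was 0 and stayed 0. Every change was thus in the other comparisons. For morphine in the wild-type nucleus accumbens, the fits that called 0 members called 0 to 21 genes in all. In wild-type mice, leaving out 1 library gave 0 to 2 members in the nucleus accumbens and 0 to 2 in the VTA. In Vdr-/- mice it gave 3 to 5 in the nucleus accumbens and 0 to 5 in the VTA, where leaving out a PBS mouse left 1 library in that group and, for 3 of 4 such mice, no gene called at all. In the Vdr-/- nucleus accumbens, edgeR called 5 of 6 members against 3076 of 15820 genes. DESeq2 called 5 of 5 there against 2124 of 14899 genes, and the members were not all the same. With all 3 mice of each VTA group, 1 member was called in wild-type mice against 2001 of 16269 genes. In Vdr-/- mice it was 2 members against 1242 of 16194 genes. Without the 3 VTA libraries highest in cortical markers, 0 members were called for the difference of the morphine effect between regions, against 665 of 16122 genes. The cause of these changes was not tested.

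Of 1021 alternatives to the log2 fold changes of members, 37 reversed a sign, in 16 results that were not called. Jun between the genotypes in PBS nucleus accumbens was at 0.00276 with edgeR and 0.00745 with DESeq2, and Junb in PBS VTA at −0.00484 and −0.00165. With all 3 mice, Jun in wild-type VTA was at −0.0876 and the Fosb interaction in the VTA at 0.0487. Without the 3 VTA libraries, Jun between genotypes with PBS was at −0.0171, and the differences between regions in the morphine effect were −0.0397 for Fosl2 and −0.0682 for Jun. Leaving out 1 library moved the genotype differences to −0.144 to 0.0707 for Jun in PBS nucleus accumbens, −0.00254 to 0.273 for Fosb and −0.00520 to 0.192 for Junb in morphine nucleus accumbens, −0.151 to 0.201 for Fosb, −0.240 to 0.575 for Fosl2, −0.162 to 0.190 for Jun and −0.181 to 0.143 for Junb in PBS VTA, and −0.0841 to 0.142 for Fos and −0.0341 to 0.235 for Fosb in morphine VTA (−0.00978 without Vdr-/- morphine mouse 2.1). It moved the wild-type VTA morphine changes to −0.0633 to 0.142 for Jun and −0.166 to 0.442 for Junb, and the interactions to −0.681 to 0.264 for Atf3 in the nucleus accumbens (0.0239 without Vdr-/- PBS mouse 8) and −0.316 to 0.0856 for Fosb in the VTA (0.0401 without wild-type morphine mouse 1.0). Leaving out 1 mouse moved the differences between regions in the morphine effect to −0.0577 to 0.202 for Fos, −0.0168 to 0.387 for Fosl2 and −0.0701 to 0.208 for Jun (−0.0345 without mouse 2.0).

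The mouse numbers did not pair the morphine mice of the genotypes. Deviations of same-digit mice had correlations of −0.016, −0.028 and −0.063 in the nucleus accumbens and −0.280, −0.185 and −0.151 in the VTA, and with the replicate block 0 members were called in both, as without it. Counts of Fosl1, Jund and, in most VTA comparisons, Atf3 were too low for the main test. Why they were low was not tested.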
